A study of Mus musculus with 2 samples.

Results

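The genes described here encode the enzymes that cut, protect and crosslink the extracellular matrix of pancreatic tumors. They are 5 matrix metalloproteinases (Mmp2, Mmp3, Mmp9, Mmp13 and Mmp14), 3 tissue inhibitors of metalloproteinases (Timp1, Timp2 and Timp3) and 2 lysyl oxidases (Lox and Loxl2). They were taken by symbol and are 10 of the 32285 genes in the count tables. Single-cell RNA sequencing was performed on unsorted cells of orthotopic tumors, grown from mouse pancreatic cancer cells placed in the pancreas of adult male mice. One library is labelled FLOX, from control mice with floxed MCT1 alleles (MCT1 fl/fl). The other is labelled MCT1-KO, in which tamoxifen-induced Cre under the Col1a2 promoter was meant to delete MCT1, the lactate transporter encoded by Slc16a1, in pancreatic stellate cells (PSCs). Col1a2 is active in collagen-producing mesenchymal cells in general, the deletion was aimed at host cells and not at the implanted tumor cells, and the sources used here do not say how many animals went into a library or whether its FLOX animals received tamoxifen or the corn oil that the study also names.

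Matrix metalloproteinases are zinc enzymes made as inactive precursors. Mmp2 and Mmp9 are gelatinases that cut denatured and basement membrane collagen, Mmp13 is a collagenase that opens the fibrillar triple helix, Mmp3 is a stromelysin with a wide substrate range that can activate other precursors, and Mmp14 is anchored in the cell membrane, where it activates pro-Mmp2 with Timp2 as a bridging partner. The Timp proteins bind the active site of these enzymes, and Timp3 is the one held in the matrix, where it also blocks several ADAM and ADAMTS proteases. Lox and Loxl2 oxidize lysine residues of collagen and elastin, the step that leads to covalent crosslinks. In pancreatic tumors a dense collagen stroma surrounds the cancer cells, and activated PSCs and other fibroblasts are known as a main source of it.

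The FLOX library held 177334432 unique molecular identifiers (UMIs, one for each captured transcript 3′ end) and the MCT1-KO library 151118092. After filtering, 8739 and 11689 cells remained, with medians of 4069 and 3706 UMIs, and 59 kept barcodes occurred in both libraries, against 70.6 expected by chance. Barcodes with over 5000 genes, which were left out, numbered 2062 (FLOX) and 1231 (MCT1-KO). The kept cells formed 25 clusters, of which 3 stayed unnamed. The unnamed clusters held 1658 FLOX and 3085 MCT1-KO cells, 19.0% and 26.4% of those kept. From the named clusters, 7 classes with at least 50 cells in each library were compared. These were PSC-like (234 FLOX and 417 MCT1-KO cells), ductal-like (2595 and 3767), endothelial-like (124 and 144), myeloid-like (2581 and 2254), neutrophil-like (756 and 702), dendritic-like (115 and 109) and T/NK-like cells (533 and 484). All 10 PSC markers were detected in PSC-like cells of both libraries. The ductal-like name is weak, since only 1 of its 6 clusters had ductal keratins among its leading genes. The targeted gene, Slc16a1, was no lower among PSC-like cells of the library labelled MCT1-KO, with 113 UMIs or 35.9 CPM (counts scaled to 1000000 UMIs of the class), than in those of the FLOX library, with 57 UMIs or 25.4 CPM (19.3 to 33.0). The free RNA, read from empty barcodes, held it at 21.4 CPM (FLOX) and 21.0 CPM (MCT1-KO), within the FLOX interval. Free RNA is only a part of a cell's UMIs, so this does not make the FLOX level background. Here and below, a class level under that of the free RNA can still come from the cells of the class. The ratio of Slc16a1 was 1.41 (95% interval 1.02 to 1.98), and the sequenced 3′ ends need not lie in the deleted part. The study reports reduced MCT1 in PSCs of such mice by Western blot, PCR and staining, and lower MCT1 in PSCs of its single-cell data. The counts here did not show the latter. Every direction below therefore refers to the library labelled MCT1-KO and not to a deletion verified in these counts.

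With 1 library per group no difference between the libraries can be tested. Each interval of a level or ratio below covers counting error only, not the spread between cells or animals. Intervals of a share of cells take cells as the sampled unit, and they too leave out the spread between animals. A ratio is called higher or lower only by its size, at least 1.5-fold in a gene with at least 20 UMIs in the class. Where free RNA is subtracted or its share given, all UMIs of acinar markers in a class were taken as free RNA. This can overstate the share. It did so in the FLOX immune classes compared, whose Timp1 lay below that share of its free RNA level.

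Promoter sequence was available for 6 of the 9 genes that were looked up, and 4 promoters are shown because the motifs found in them set Mmp3 and Mmp13 apart from Mmp14 and the inhibitors. Each line gives the 150 bases before the RefSeq transcription start in mouse build GRCm38.p6, 5′ to 3′ on the gene's own strand, which is the plus strand for these 4 genes. Capitals mark matches on either strand to the AP-1 motif TGANTCA, the GC box GGGCGG and the TATA box TATAAA.
Mmp3, chr9:7445672-7445821: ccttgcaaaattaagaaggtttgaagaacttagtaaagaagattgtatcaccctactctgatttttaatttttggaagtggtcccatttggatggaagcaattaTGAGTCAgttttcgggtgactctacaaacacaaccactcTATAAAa
Mmp13, chr9:7272364-7272513: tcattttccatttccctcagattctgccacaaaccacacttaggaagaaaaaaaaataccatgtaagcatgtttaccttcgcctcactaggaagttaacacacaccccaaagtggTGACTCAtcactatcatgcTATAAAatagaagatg
Mmp14, chr14:54431448-54431597: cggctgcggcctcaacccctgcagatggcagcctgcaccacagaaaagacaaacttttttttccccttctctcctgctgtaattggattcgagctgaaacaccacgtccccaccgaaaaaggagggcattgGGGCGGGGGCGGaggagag
Timp1, chrX:20870016-20870165: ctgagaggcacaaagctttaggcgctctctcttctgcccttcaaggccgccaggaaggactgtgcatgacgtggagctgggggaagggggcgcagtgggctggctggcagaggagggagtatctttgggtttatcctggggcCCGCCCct
Mmp3 and Mmp13, neighbours on chromosome 9, each held an AP-1 motif that began 46 and 35 bases before the start, and a TATA box that began 7 and 16 bases before it. Mmp14 held 2 GC boxes that follow each other and Timp1 held 1, read on the opposite strand. Timp2 and Timp3 each held 1 GC box, and none of the Timp or Mmp14 promoters held the AP-1 or TATA letters in the 250 bases searched. Among 32851 promoters, 6.75% held the AP-1 letters in such a window, 32.7% the GC box and 12.4% the TATA box, so the matches are descriptions of the letters and not of factor binding. In the GENCODE vM21 annotation of GRCm38 all these genes are protein coding: Mmp3 spans chr9:7445822-7455975, Mmp13 chr9:7272514-7283331, Mmp2 chr8:92827291-92853420, Mmp9 chr2:164940780-164955850 and Mmp14 chr14:54431612-54445364. The inhibitors Timp1, Timp2 and Timp3 span chrX:20870166-20874735, chr11:118301069-118355740 and chr10:86300372-86349506, and Loxl2 spans chr14:69609068-69695834.

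Of the 10 genes, 8 had their highest level in PSC-like cells in both libraries. The exceptions were Mmp9, highest in neutrophil-like cells, and Mmp13, highest in myeloid-like cells. Mmp2, Lox and Loxl2 were nearly limited to PSC-like cells, whereas Mmp14 was found at high levels in ductal-like, endothelial-like and myeloid-like cells too. Timp2 was above the free RNA in ductal-like and myeloid-like cells as well, but not in endothelial-like cells. Statements on classes below refer to the 7 that were compared. Their order is a description, since they were built from the same cells.

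Among the proteases, Mmp2 stood at 496 CPM in PSC-like cells of the FLOX library (1111 UMIs) and 413 CPM in those of the MCT1-KO library (1298 UMIs). The class that came next, myeloid-like cells, was at 12.1 and 4.90 CPM, so that PSC-like cells were higher by 40.9-fold (35.1 to 48.0) and 84.3-fold (64.8 to 112). Myeloid-like cells and all classes below them, most of which were not separated from their neighbours in the order, lay under the 14.7 and 13.2 CPM of free RNA, measured in barcodes with 10 to 100 UMIs. PSC-like cells thus held 78.6% and 87.8% of all Mmp2 UMIs in kept cells.

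Of the classes compared, PSC-like cells had Mmp3 above the level of the free RNA in both libraries and ductal-like cells in the FLOX library. PSC-like cells had 74.1 CPM in the FLOX library and 115 CPM in the MCT1-KO library, and ductal-like cells had 30.6 and 28.2 CPM, beside 20.8 and 26.0 CPM in the free RNA. The MCT1-KO intervals of ductal-like cells (26.8 to 29.7) and free RNA (24.0 to 28.0) overlap. Because ductal-like cells were many and deep, they held 78.8% and 73.4% of the Mmp3 UMIs.

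Mmp9 marked the neutrophil-like class, with 548 CPM (709 UMIs) in the FLOX library and 302 CPM (273 UMIs) in the MCT1-KO library. T/NK-like cells came next at 5.32 and 3.75 CPM, from 11 and 6 UMIs. Neutrophil-like cells held 86.9% and 77.3% of the Mmp9 UMIs, and PSC-like cells had only 2 and 5 UMIs. Mmp13 was rare everywhere. Its highest level, in myeloid-like cells, was 11.98 CPM in the FLOX library (187 UMIs) and 4.73 CPM in the MCT1-KO library (56 UMIs), beside 3.89 and 2.97 CPM in the free RNA.

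Mmp14 was the most widely spread protease. It stood at 544 and 457.99 CPM in PSC-like cells, 315 and 331 CPM in endothelial-like cells, 282 and 268 CPM in ductal-like cells and 266 and 261 CPM in myeloid-like cells. PSC-like cells were higher than endothelial-like cells by 1.73-fold (1.49 to 2.01) in the FLOX library and by 1.38-fold (1.17 to 1.65) in the MCT1-KO library. Endothelial-like and ductal-like cells were not separated in the FLOX library, nor ductal-like and myeloid-like cells in the MCT1-KO library. Dendritic-like, T/NK-like and neutrophil-like cells lay between 22.4 and 69.3 CPM, under the 86.4 and 87.3 CPM of the free RNA.

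**Figure D1:**
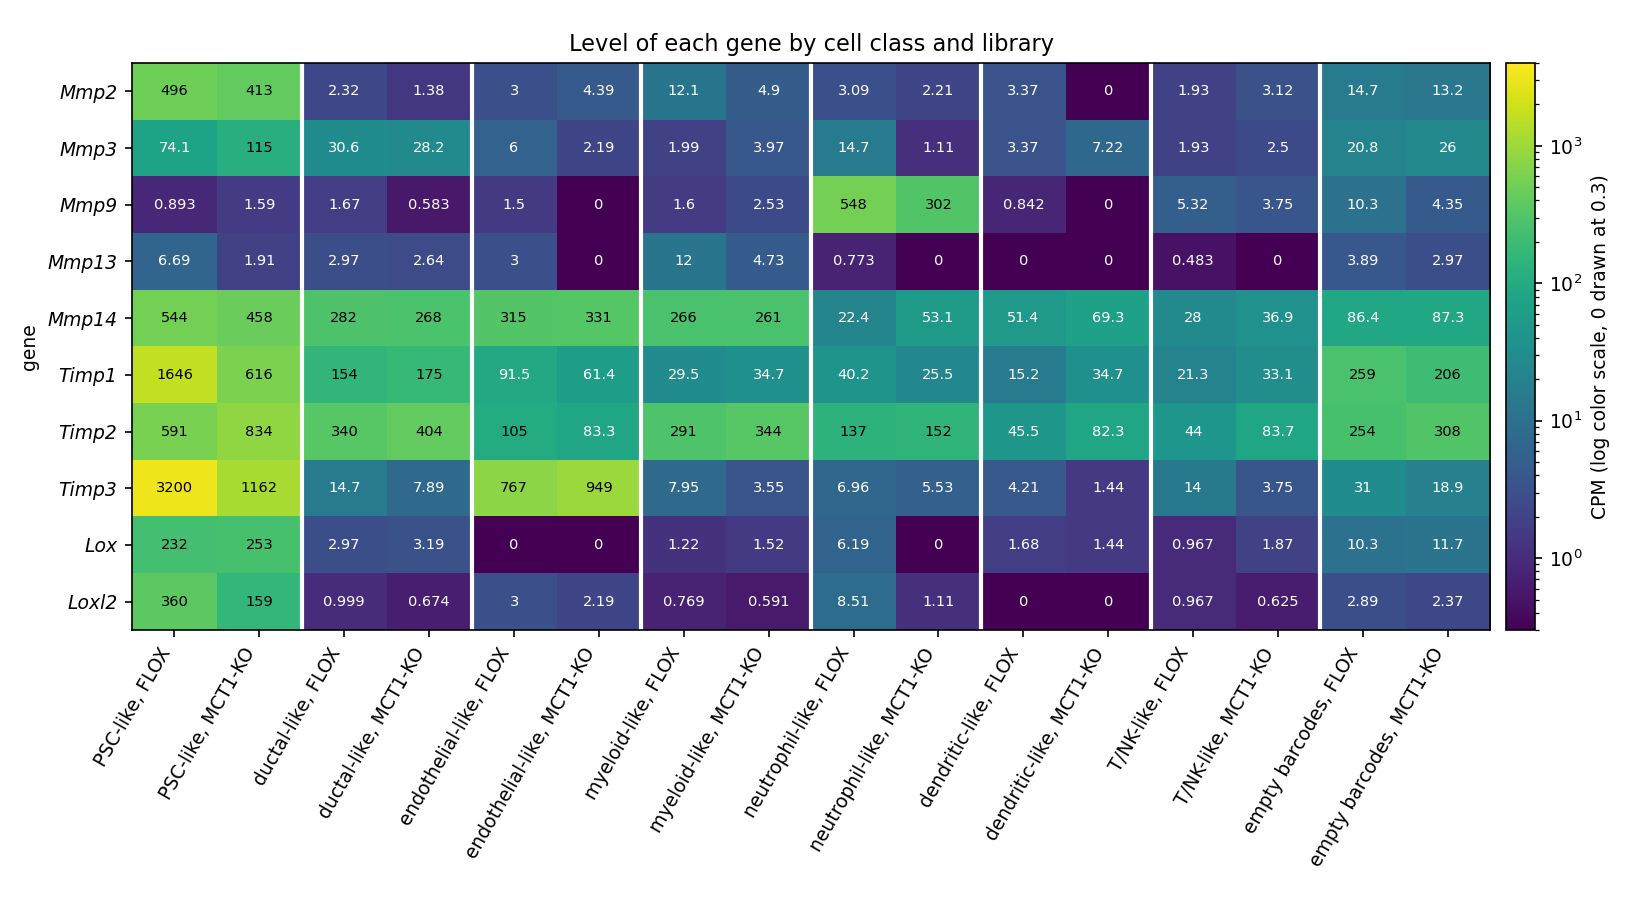
Level of each gene (rows) in 7 cell classes and in empty barcodes (free RNA) for each library (columns), in CPM, with the color on a log scale and the value printed in each cell. PSC-like columns carry the highest value of 8 genes, Mmp9 peaks in neutrophil-like and Mmp13 in myeloid-like columns, and Mmp14 and Timp2 exceed 250 CPM in PSC-like, ductal-like and myeloid-like cells of both libraries.

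The 3 inhibitors differed in where they were found. Timp3 was shared between PSC-like cells, with 3200 CPM in the FLOX library (7170 UMIs) and 1162 CPM in the MCT1-KO library (3655 UMIs), and endothelial-like cells, with 767 CPM (511 UMIs) and 949 CPM (433 UMIs). PSC-like cells were therefore higher than endothelial-like cells by 4.17-fold (3.82 to 4.58) in the FLOX library and by only 1.22-fold (1.11 to 1.35) in the MCT1-KO library. The other classes compared were at or under 14.7 CPM, below the 31.0 and 18.9 CPM of the free RNA.

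Timp1 was highest in PSC-like cells, at 1646 and 616 CPM, followed by ductal-like cells at 154 and 175 CPM. The distance between these classes was 10.7-fold (10.2 to 11.1) in the FLOX library and 3.51-fold (3.34 to 3.69) in the MCT1-KO library. PSC-like cells contributed 36.5% of the Timp1 UMIs counted for FLOX but 14.8% of those counted for MCT1-KO. Free RNA was rich in Timp1, with 259 and 206 CPM, more than in any class but PSC-like cells. Timp2, the partner of Mmp14, stood at 591 and 834 CPM in PSC-like cells, 340 and 404 CPM in ductal-like cells and 291 and 344 CPM in myeloid-like cells, beside 254 and 308 CPM in the free RNA. Neutrophil-like cells, at 137 and 152 CPM, and the remaining classes compared, at 105 CPM or less, were under it.

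Both lysyl oxidases were genes of PSC-like cells. Lox was at 232 CPM (520 UMIs) in the FLOX library and 253 CPM (796 UMIs) in the MCT1-KO library, and Loxl2 was at 360 CPM (807 UMIs) and 159 CPM (500 UMIs). In all other classes both genes lay under 10 CPM, and no UMI of Lox was found in endothelial-like cells, where 3 counts would be 4.50 and 6.58 CPM. PSC-like cells held 78.9% and 77.8% of the Lox UMIs and 91.8% and 89.8% of the Loxl2 UMIs.

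**Figure D2:**
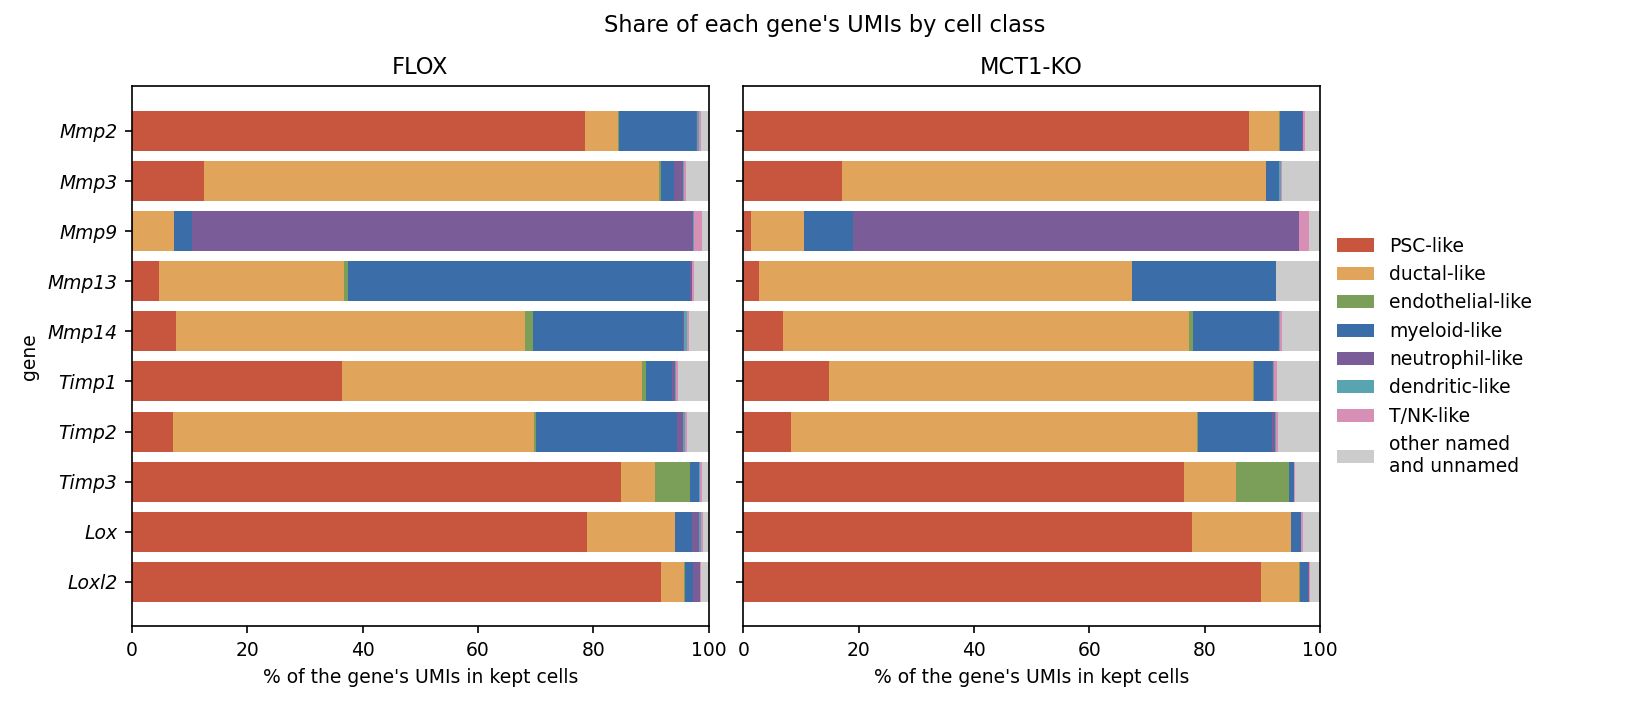
Share of each gene's UMIs in kept cells (horizontal axis, percent) that came from each cell class (colors), one panel per library. PSC-like cells hold over 75% of the UMIs of Mmp2, Timp3, Lox and Loxl2 in both libraries, neutrophil-like cells hold most of Mmp9, and ductal-like cells, which are numerous, hold most of Mmp3, Mmp14, Timp1 and Timp2.

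The comparison of the libraries within PSC-like cells asks how these genes differed between the stromal cells of the 2 libraries. Timp3, Timp1 and Loxl2 were lower in the library labelled MCT1-KO, as was Mmp13 from 15 and 6 UMIs, and Mmp3 was higher. Timp2 was higher by less than 1.5-fold, and Mmp2, Mmp14 and Lox differed by less than 1.5-fold too. Of the 9 genes that were counted, 1 was called higher and 4 were called lower, where among 11039 counted genes 12.2% were called higher and 13.4% lower. The median ratio was 0.832 over the 9 genes and 0.978 over all counted genes.

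Timp3 had 0.363 times its FLOX level in the MCT1-KO library (0.349 to 0.378), and Timp1 had 0.374 times its FLOX level (0.354 to 0.396). Both inhibitors were thus lower by more than 2-fold, each with over 1900 UMIs in either library. Loxl2 was at 0.441 of its FLOX level (0.394 to 0.494), while its relative Lox had a ratio of 1.09 (0.975 to 1.22), whose interval holds 1. The 2 crosslinking enzymes of the same cells therefore differed in their ratio.

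Mmp3 had a ratio of 1.56 (1.29 to 1.88), from 166 UMIs in 21 cells and 363 UMIs in 58 cells. In the FLOX library 69 of its UMIs, and in the MCT1-KO library 46, came from 1 cell. Without that cell in each library the ratio was 2.33, and with each cell classed by its own markers it was 0.968. Mmp13 had a ratio of 0.285 (0.0905 to 0.777) from 15 and 6 UMIs, each in 3 cells, and without its top cell too few UMIs remained for it to be counted. The values of Mmp3 and Mmp13 thus rest on few cells.

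The Mmp14, Mmp2 and Timp2 set, whose proteins act together in the activation of pro-Mmp2, had ratios on both sides of 1. Mmp14 had a ratio of 0.842 (0.779 to 0.909), Mmp2 of 0.832 (0.767 to 0.902) and Timp2 of 1.41 (1.32 to 1.51). None reached 1.5-fold, but after subtraction of free RNA Mmp2 was at 0.624 and Mmp14 at 0.649, both past it, and in cells without an immune UMI Mmp14 was at 1.43 from 7 and 97 UMIs, Timp2 at 1.75 from 12 and 203 and Mmp2 at 3.25. All 3 transcripts were found together in 53.0% of PSC-like cells of the FLOX library (46.4 to 59.5) and in 46.0% of those of the MCT1-KO library (41.2 to 50.96), at their full depths. In cells thinned at random to 1000 UMIs each the shares were 4.78% (2.32 to 8.62) and 6.54% (4.28 to 9.51), the other way round, and the intervals overlap at both depths.

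**Figure D3:**
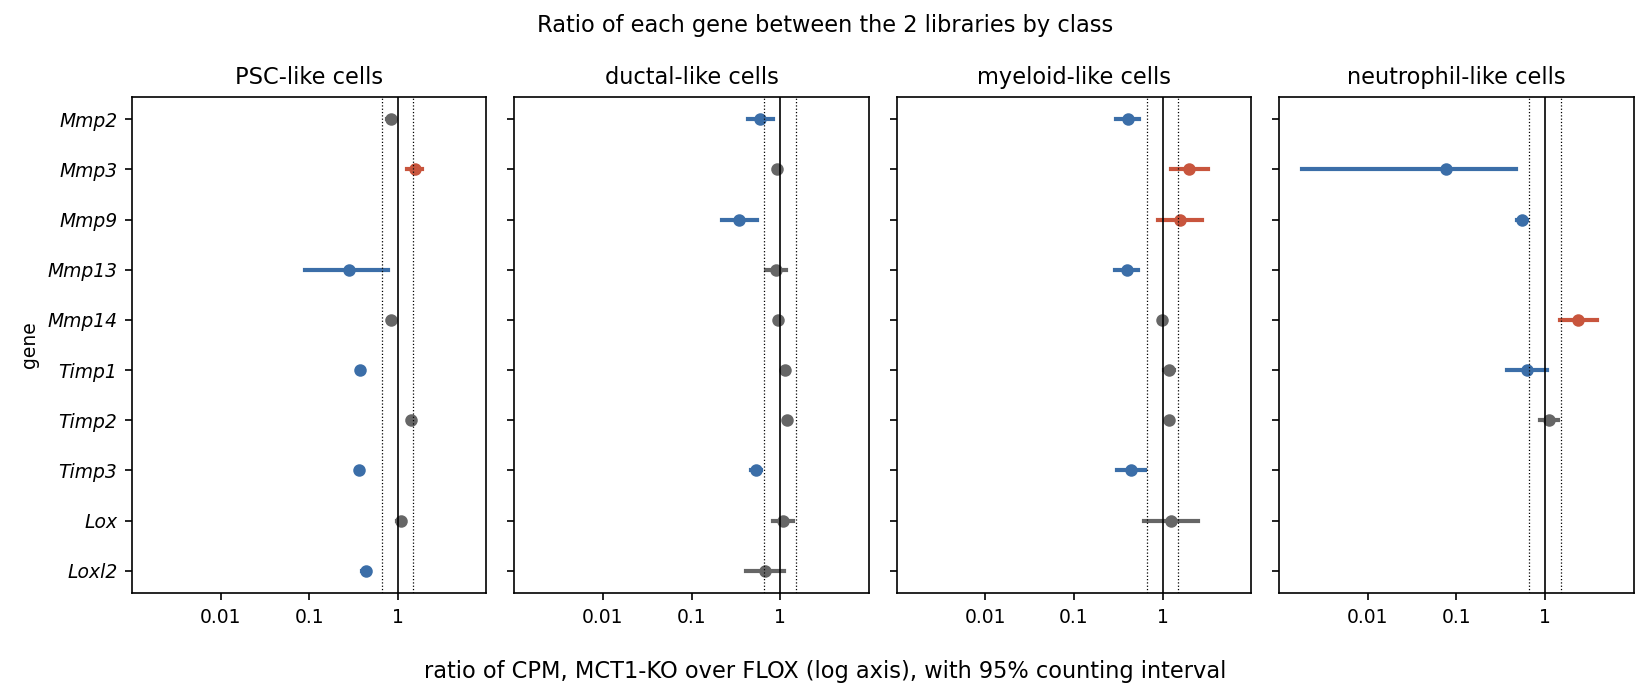
Ratio of the level in the MCT1-KO library to that in the FLOX library (log axis) for each gene counted in 4 classes, with 95% counting intervals; blue points are called lower, red points higher and grey points neither, and dotted lines mark 1.5-fold. Timp1, Timp3 and Loxl2 lie left of the dotted lines in PSC-like cells with narrow intervals, while Mmp9 in neutrophil-like cells is at 0.551.

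Other features of the PSC-like cells differed between the libraries as well. Summed acinar markers, all 12 of them detected, were at 114 CPM in the FLOX and 1805 CPM in the MCT1-KO library, and this difference was seen in every class compared, which ranged from 46.4 to 206 CPM in the FLOX and from 784 to 6601 CPM in the MCT1-KO library. Adipocyte markers were at 0.893 CPM, with 3 of 5 at 0, and 1024 CPM, with none at 0. Myeloid markers, all 12 detected, were at 3051 and 4921 CPM, mesothelial markers at 356 and 311 CPM, and heat shock and early response genes at 10177 and 7375 CPM. The PSC markers themselves summed to 26668 and 19212 CPM, and the median depth was 8228 and 7002 UMIs. The part of these differences in the ratios above was not tested.

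The ratios of Timp1, Timp3 and Loxl2 were below 1 under every other processing that was tried, and some settings shrank them. Classing cells one by one by their markers put 1455 FLOX and 1509 MCT1-KO cells in the class, in place of 234 and 417. Most of them were thus not in the PSC-like class used above. Under this rule Timp1 was at 0.793, Timp3 at 0.522 and Loxl2 at 0.617. Lox, at 1.09 otherwise, was at 1.53 under this rule, past 1.5-fold. In PSC-like cells without a UMI of 6 immune genes, which left 10 FLOX and 63 MCT1-KO cells, Timp3 was at 0.737 from 8 and 57 UMIs, and the 3.25 of Mmp2 came from 5 and 157 UMIs. After subtraction of free RNA, an estimated 33.1% and 10.2% of what was counted in this class, Mmp3 was at 1.25 and no gene was called higher. That estimate rests on the acinar markers and can be too high.

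The share of cells with a transcript gave the same direction as the levels for Timp1, Timp3 and Loxl2. To set libraries of different depth side by side, each cell was thinned to 1000 UMIs in a single random draw. This left out 25 FLOX and 35 MCT1-KO cells of the PSC-like class. Timp1 was then found in 50.7% of FLOX cells (43.7 to 57.7) and in 33.0% of MCT1-KO cells (28.3 to 38.0), and Timp3 in 50.2% (43.3 to 57.2) and 36.1% (31.3 to 41.2). These intervals did not overlap. At 2000 UMIs per cell those of Timp1 did overlap, at 63.5% (56.3 to 70.4) and 52.1% (46.8 to 57.4), while Timp3 stayed apart at 61.5% (54.2 to 68.4) and 43.3% (38.1 to 48.7). Without thinning the shares were 79.1% and 69.3% for Timp1 and 67.1% and 54.0% for Timp3.

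Loxl2 was found in 24.9% (19.2 to 31.3) and 15.2% (11.7 to 19.2) of thinned cells and Timp2 in 42.1% (35.3 to 49.1) and 54.2% (49.1 to 59.3), pairs whose intervals meet or nearly meet. Mmp3 was found in 3.35% (1.36 to 6.78) and 7.07% (4.71 to 10.1). For Mmp2 (29.7% and 25.7%), Mmp14 (32.5% and 30.4%) and Lox (18.2% and 16.8%) the intervals overlapped. At 2000 UMIs per cell Mmp2 was found in 50.5% (43.2 to 57.8) and 37.1% (32.1 to 42.4), which did not overlap. T/NK-like cells, taken as a class that should lack fibroblast proteases, had median depths of 2999 and 2447 UMIs before thinning. They gave shares of 0% to 6.77% after it, highest for Timp2. For Loxl2, for example, 0 of 443 T/NK-like cells of the MCT1-KO library carried a UMI, with an exact upper limit of 0.829%. Mmp9 was found in no thinned PSC-like cell, below its share in T/NK-like cells. Mmp13 was found in 0.478% of FLOX PSC-like cells (0.0121 to 2.64) and in 0 of 504 T/NK-like cells of that library, with overlapping intervals.

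The transcripts of Timp1 and Timp3 were also unevenly spread over the cells that carried them. The top 10% of PSC-like cells held 59.9% and 52.0% of the Timp1 UMIs and 59.1% and 65.2% of the Timp3 UMIs, beside 45.8% and 50.8% for Mmp2. These shares were taken at full depth, which differed between cells. A single cell carried up to 338 Timp3 UMIs in the FLOX library and up to 125 in the MCT1-KO library. Leaving out the top cell of each library changed the ratios little, to 0.384 for Timp1 and 0.368 for Timp3. Both transcripts were found together in 32.1% of thinned FLOX cells (25.8 to 38.8) and 14.9% of thinned MCT1-KO cells (11.5 to 18.9).

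**Figure D4:**
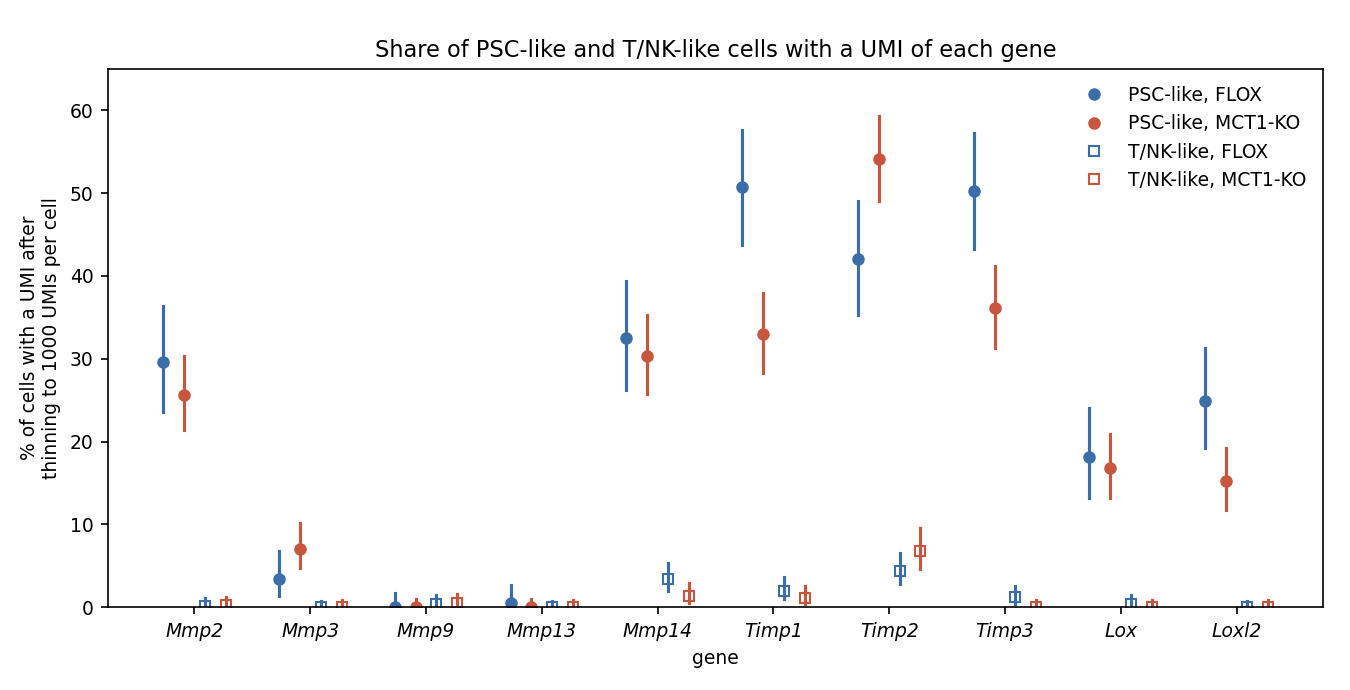
Share of PSC-like cells (filled circles) and of T/NK-like cells (open squares) with at least 1 UMI of each gene after thinning to 1000 UMIs per cell, in percent, with exact binomial 95% intervals; blue is FLOX and red is MCT1-KO. At this depth the PSC-like intervals of Timp1 and Timp3 do not overlap, and T/NK-like cells stay at or under 6.77%. At the greater thinning depth those of Mmp2, Timp2, Timp3 and Loxl2 do not overlap, while those of Timp1 do. The share of all genes without overlap was not computed, so the lack of overlap sets no gene apart.

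Within the PSC-like class, the lower Timp1 and Timp3 levels of the MCT1-KO library were seen in fibroblastic and in myofibroblastic cells. The larger of its 2 clusters was split by whether a cell had more UMIs of fibroblastic genes, such as Dcn and Lum, or of myofibroblastic and mural genes, such as Acta2 and Tagln. The smaller cluster, of 16 and 24 cells, was led by Rgs5, Tagln and Myh11, genes of pericytes and smooth muscle. This split is a range and not a set of types, since 33 FLOX and 40 MCT1-KO cells lay within 2 UMIs of the boundary, and 5 and 14 cells with equal numbers were left out.

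Timp3 stood at 3005 CPM in 187 fibroblastic FLOX cells and 1125 CPM in 360 fibroblastic MCT1-KO cells, and at 5317 and 2031 CPM in 26 and 19 myofibroblastic cells. In the Rgs5 cluster it was at 1428 CPM (1223 to 1656) and 1179 CPM (1008 to 1371), intervals that overlap. Timp1 was at 1399 and 595 CPM in fibroblastic, 3957 and 1614 CPM in myofibroblastic and 254 and 83.7 CPM in Rgs5 cells, from only 31 and 12 UMIs in the last. Both inhibitors were thus highest in the myofibroblastic cells of either library.

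Loxl2 was at 336 and 144 CPM in fibroblastic cells, 478 and 234 CPM in myofibroblastic cells, and 468 CPM (354 to 606) and 405 CPM (307 to 523) in the Rgs5 cluster, where the intervals overlap. Lox was lower in the Rgs5 cluster, with 6 UMIs or 49.2 CPM (18.1 to 107) in the FLOX and 0 UMIs in the MCT1-KO library. In myofibroblastic cells it was at 327 CPM (263 to 403) and 446 CPM (343 to 570). Mmp2 and Mmp3 had no UMI in the Rgs5 cluster of either library, where 3 counts would be 24.6 and 20.9 CPM. Mmp3 was mainly a transcript of fibroblastic cells, where it stood at 90.1 CPM (77.0 to 105) in the FLOX and 125 CPM (112 to 139) in the MCT1-KO library. Their ratio, 1.39, is under 1.5-fold. In myofibroblastic cells Mmp2 was at 493 and 198 CPM and Mmp14 at 717 and 276 CPM, from 28 and 39 UMIs in the MCT1-KO library.

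**Figure D5:**
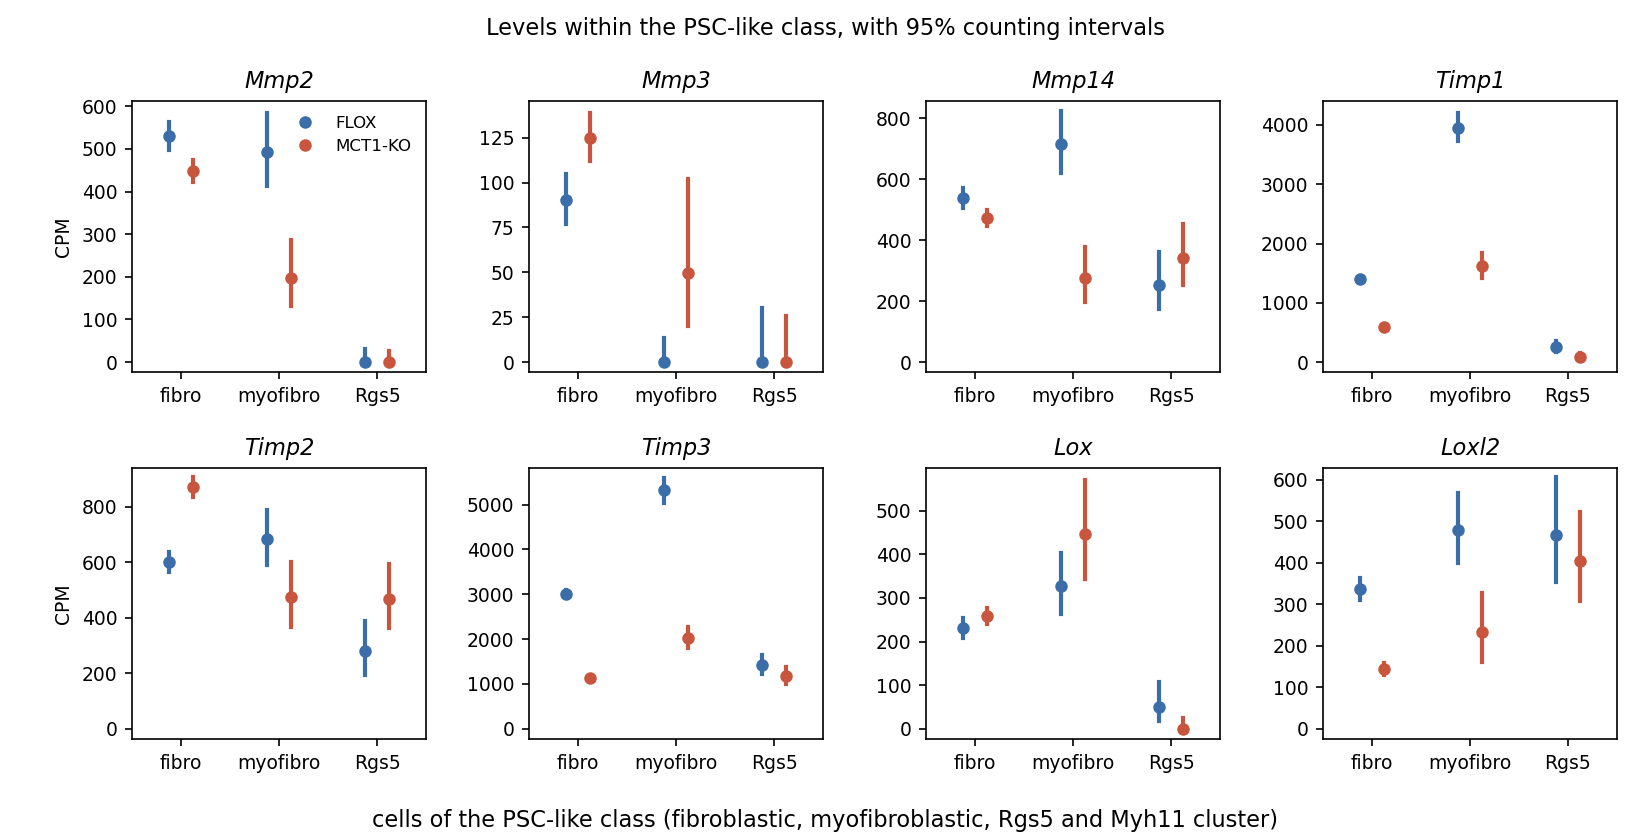
Level in CPM (vertical axes, from 0) of 8 genes in fibroblastic (fibro) and myofibroblastic (myofibro) cells of the larger PSC-like cluster and in the Rgs5 and Myh11 cluster (Rgs5), with 95% counting intervals; blue is FLOX and red is MCT1-KO. Timp1 and Timp3 are lower in the MCT1-KO library in fibroblastic and myofibroblastic cells, and Mmp2 and Mmp3 are at 0 in the Rgs5 cluster.

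The proteases and inhibitors of a class can be set against each other as UMIs of Timp1, Timp2 and Timp3 for each UMI of the 5 proteases. PSC-like cells had 4.85 inhibitor UMIs per protease UMI in the FLOX library (4.64 to 5.06) and 2.64 in the MCT1-KO library (2.53 to 2.75). Most of this distance lay in the inhibitors, which summed to 5437 and 2612 CPM, while the proteases summed to 1122 and 989 CPM. In ductal-like cells the number was 1.60 (1.56 to 1.63) and 1.95 (1.91 to 1.99), and in myeloid-like cells 1.12 (1.07 to 1.16) and 1.38 (1.32 to 1.45). These classes thus differed from PSC-like cells in direction, though by less than 1.5-fold. In both classes Timp1 and Timp3 lay under the free RNA, and Timp2, their most abundant inhibitor, was higher in PSC-like cells too (ratio 1.41). Free RNA made up an estimated 13.5% and 4.45% of ductal-like UMIs and 35.7% and 11.8% of myeloid-like UMIs, and its part was not tested. Endothelial-like cells had 2.93 (2.51 to 3.43) and 3.24 (2.70 to 3.91), and neutrophil-like cells, with their Mmp9, had the lowest values, 0.312 (0.269 to 0.362) and 0.509 (0.420 to 0.616). These are transcript counts, and neither active enzyme nor inhibitor protein was measured.

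In ductal-like cells, the class that should hold the tumor cells, the 4 abundant genes differed by less than 1.5-fold. Mmp14 was at 282 and 268 CPM (ratio 0.952, 0.927 to 0.977), Timp1 at 154 and 175 CPM (1.14, 1.10 to 1.18), Timp2 at 340 and 404 CPM (1.19, 1.16 to 1.21) and Mmp3 at 30.6 and 28.2 CPM (0.923, 0.853 to 0.9995). All 10 genes were counted, none was called higher and 3 were called lower, where 7.94% and 10.5% of 15027 genes were called. The 3 were Mmp2 (0.596), Mmp9 (0.348) and Timp3 (0.538), all at levels below those of the free RNA of the same library. After subtraction of free RNA the ratio was 2.14 for Mmp2 and 1.23 for Mmp9. Without the upper limit on genes, which gave 4227 FLOX and 4931 MCT1-KO ductal-like cells, 1 of the 3 calls was left. The median ratio was 0.907 over the 10 genes and 1.007 over all counted genes.

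Among the ductal-like clusters, the one led by the cytokines Lif, Cxcl1 and Il11 had the most Mmp3 in the FLOX library, 52.7 CPM (46.4 to 59.6), and 45.8 CPM (41.5 to 50.4) in the MCT1-KO library. The cluster led by Piezo1 and Mir100hg had 19.2 CPM (14.1 to 25.6) and 46.9 CPM (40.8 to 53.7), the reverse of the class as a whole. Timp1 in the cytokine cluster was at 171 CPM (159 to 183) and 267 CPM (256 to 278). The class ratio of Timp1 and Mmp3 thus averages clusters that differed from each other.

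In myeloid-like cells Mmp14 and Timp2 were the abundant genes, found in 67.2% and 65.3% of FLOX cells and 62.6% and 66.3% of MCT1-KO cells. Their ratios were 0.979 (0.934 to 1.03) and 1.18 (1.13 to 1.23). Of 9 counted genes, Mmp3 (2.00, 1.24 to 3.25) and Mmp9 (1.58, 0.899 to 2.80) were called higher, and Mmp2 (0.404, 0.296 to 0.545), Mmp13 (0.395, 0.287 to 0.534) and Timp3 (0.446, 0.307 to 0.638) lower, where 11.1% and 11% of 13011 genes were called. The interval of Mmp9 holds 1, and all 5 but Mmp13 lay below the free RNA in both libraries. With cells classed one by one by their markers Mmp3 was at 0.628 and Mmp9 at 0.699, and with likely doublets left out Mmp3 was at 1.11 and Timp1, at 1.18 otherwise, at 0.661. The median ratio was 1.18 over the 9 genes and 1.02 over all counted genes.

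Mmp13 differed between the myeloid-like clusters. It was highest in the cluster led by Arg1 and Saa3, at 26.5 CPM (21.1 to 32.9) and 12.2 CPM (8.58 to 16.96), and the cluster of macrophage genes led by Apoe, Ccl8 and C1qc had 9.69 CPM (7.82 to 11.9) and 1.79 CPM (0.893 to 3.20). In neither library was the cluster next in order to the Arg1 cluster separated by its interval from the one after it. Few cells carried it, 76 of 2581 and 24 of 2254, with up to 17 UMIs in 1 cell. Mmp13 was lower in the MCT1-KO library in both clusters. In myeloid-like cells heat shock and early response genes were at 10761 and 5443 CPM, and free RNA made up an estimated 35.7% and 11.8% of the UMIs. The part of these in the myeloid-like ratios was not tested.

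Neutrophil-like cells carried the highest level of any of the 5 member proteases among the immune classes compared, that of Mmp9, and it was lower in the library labelled MCT1-KO. The ratio was 0.551 (0.477 to 0.634), and Mmp9 was found in 38.2% (34.6 to 41.9) and 23.7% (19.8 to 28.0) of thinned cells. The cluster led by Hdc and Il1r2 was at 533 CPM (489 to 580) and 264 CPM (229 to 303). The smaller cluster led by Ngp and Camp, genes of neutrophil granules, was at 600.1 CPM (515 to 696) and 508 CPM (398 to 640), with overlapping intervals. After subtraction of free RNA the ratio of Mmp9 was 0.356, the lowest of all settings.

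Of the 5 genes counted in neutrophil-like cells, 1 was called higher and 3 lower, where 17.9% and 12.7% of 7546 genes were called. The median ratio was 0.633, beside 1.09 over all counted genes. Mmp14 was the one called higher, at 22.4 and 53.1 CPM (2.37, 1.46 to 3.89), although 22 cells of each library carried it and it lay under the free RNA. With likely doublets left out its ratio was 0.908. Timp1 was at 0.633 (0.370 to 1.053), an interval that holds 1. Mmp3 was at 0.0753 (0.00181 to 0.474) from 19 UMIs and 1 UMI, and 15 of the 19 came from a single cell, so it reached the 20 UMIs through the FLOX library and the count of 3 lower is no support for a direction. Acinar markers were at 206 and 6601 CPM in this class, the highest of those compared. Heat shock and early response genes were at 10791 and 5172 CPM, and free RNA made up an estimated 59.8% and 37.4% of the UMIs. The part of these in the ratios was not tested. The FLOX estimate is too high, since 59.8% of the 259 CPM of Timp1 in free RNA exceeds its 40.2 CPM in this class.

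Endothelial-like cells were a source of Timp3 in both libraries. It was at 767 and 949 CPM (ratio 1.24, 1.09 to 1.41), and in thinned cells it was found in 44.3% (34.2 to 54.8) and 62.0% (52.2 to 71.2), intervals that overlap. Mmp14 had a ratio of 1.051 (0.847 to 1.30), Timp1 of 0.671 (0.413 to 1.07) and Timp2 of 0.793 (0.520 to 1.19), and none of the 4 counted genes was called, where 10.3% and 18.2% of 6556 genes were. The median ratio of these genes was 0.922, beside 0.946 over all counted genes.

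In dendritic-like and T/NK-like cells the counted genes were few and lay at or under the free RNA. Dendritic-like cells had Timp1 at 15.2 and 34.7 CPM (2.29, 1.19 to 4.47) and Timp2 at 45.5 and 82.3 CPM (1.81, 1.23 to 2.68), 2 of 3 counted genes that were called higher, where 13.2% of 7400 genes were. T/NK-like cells had Timp1 at 1.56 (1.02 to 2.38) and Timp2 at 1.90 (1.45 to 2.51), called higher, and Timp3 at 0.267 (0.0908 to 0.656), called lower, among 4 counted genes. Of the 29 FLOX UMIs of Timp3, 12 came from 1 cell, and with likely doublets left out its ratio was 0.556. There 10.3% and 12.1% of 9639 genes were called. Timp1 was below 1 under other settings, at 0.820 in dendritic-like and 0.725 in T/NK-like cells with cells classed one by one. The median ratios were 1.81 and 1.44 over these genes and 0.986 and 0.981 over all counted genes of the 2 classes.

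Other genes of matrix turnover were taken from 7 lists of 78 genes, of which 77 were found in the count tables. In PSC-like cells 58 of them were counted, 7 were called higher and 12 lower, where 12.2% and 13.4% of all counted genes were, and the median ratio was 0.892, beside 0.978 over all counted genes. The list of other lysyl oxidases and crosslinking enzymes had the lowest median, 0.704, with 1 of 14 counted genes higher and 5 lower. This list also holds prolyl hydroxylases, a collagen chaperone and procollagen processing genes. None of the 5 was a lysyl oxidase or a transglutaminase. Plod2, which hydroxylates collagen lysines, was at 328 and 92.2 CPM (0.281, 0.244 to 0.322), P4ha3, a subunit of the collagen prolyl hydroxylase, at 36.6 and 10.2 CPM (0.278, 0.179 to 0.423), and the collagen chaperone Serpinh1 at 808 and 332 CPM. P4ha1 and the procollagen proteinase enhancer Pcolce were the other 2 called lower. Pcolce2 was the one called higher, at 15.6 and 43.2 CPM (2.77, 1.90 to 4.14).

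The protease lists held ratios in both directions in PSC-like cells. Of 16 counted ADAM and ADAMTS genes, 2 were called higher and 4 lower, against the same 12.2% and 13.4%. Adam12, a membrane metalloprotease, was at 206 and 60.4 CPM (0.293, 0.246 to 0.347), whereas the aggrecanase Adamts4 was at 84.8 and 157 CPM (1.86, 1.57 to 2.20). Among 8 cathepsins and cystatins 1 was called higher, the lysosomal protease Ctsl, at 1027 and 1541 CPM (ratio interval 1.43 to 1.58). The cystatin Cst3 was at 861 and 1117 CPM (1.30), and the proteoglycan Spock2 had the highest ratio, 3.83 (1.78 to 9.43) from 8 and 43 UMIs. Of the 4 other metalloproteinases, 6 plasminogen system genes, 5 other inhibitors and 5 other stromal proteases counted, 0, 1, 2 and 0 were called higher and 1, 0, 1 and 1 lower.

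In ductal-like cells 65 list genes were counted, 5 were called higher and 14 lower, where 7.94% and 10.5% of all counted genes were, with a median ratio of 0.866. P4ha1 was at 180 and 61.3 CPM (0.341), Serpinh1 at 205 and 79.3 CPM (0.387) and the transglutaminase Tgm2 at 71.1 and 31.3 CPM (0.440). P4ha1 and Serpinh1 were thus called lower in PSC-like and in ductal-like cells. In ductal-like cells heat shock and early response genes were at 16620 and 8056 CPM, PSC markers at 2154 and 1366 CPM and ductal markers at 1365 and 1765 CPM, and their part in these ratios was not tested. Timp4, the fourth member of the inhibitor family, had the highest ratio, 7.83 (4.25 to 16.1), from 11 and 139 UMIs and at a level of 2.53 CPM or less. Tll1 (1.89) and Mmp8 (1.51, with an interval of 0.825 to 2.90) came next from under 70 UMIs in either library, and Cst3 and the metalloproteinase inducer Bsg, at 587 CPM each in the FLOX library, were the most abundant.

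In myeloid-like cells 51 list genes were counted, 12 were called higher and 8 lower, where 11.1% and 11% of all counted genes were, with a median ratio of 1.04. Mmp12, the macrophage elastase, was at 32.7 and 11.5 CPM (0.351, 0.289 to 0.425), and Mmp19 was at 30.8 and 63.7 CPM (2.07, 1.85 to 2.33). Fap (8.78, 5.33 to 15.3), a protease of activated fibroblasts, and Serpinb2 (5.45, 3.06 to 10.3), an inhibitor of urokinase, had the highest ratios from 18 and 15 UMIs in the FLOX library, while Loxl3 (0.389) and P4ha2 (0.405) were among the lowest. The cathepsin Ctss and Cst3 were the most abundant, with ratios of 1.04 and 0.884. In neutrophil-like cells 30 were counted, 5 higher and 7 lower, where 17.9% and 12.7% of all counted genes were called, with a median ratio of 0.954. Mmp8, the neutrophil collagenase, was at 244 and 635 CPM (2.61, 2.27 to 3.001), the reverse of Mmp9 in the same cells. Adam19 (3.66) and Adamts1 (2.08) were higher too, and the urokinase receptor Plaur (0.532), Ctsd (0.503), Ctsb (0.588) and Cst3 (0.644) were lower.

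The genes whose levels were most like those of each member were sought among 11012 genes over 14 points, the 7 classes in both libraries. The points of a class share their cell type and those of a library share its depth, so the correlations are descriptions. Pearson's r on log2(CPM + 10) values ranged from 0.891 to 0.997 for the 3 closest genes. The closest genes are given in parentheses for Mmp2 (Spon1, Mdk and Sfrp1), Loxl2 (Mfap4, Fndc1 and Sfrp1), Lox (Igfbp2, Ptgis and Clec3b), Timp1 (Myl9, Rcn3 and C1s1), Timp3 (Mxra7, Nid1 and Rgs5) and Mmp3 (Cyp1b1, Sphk1 and Dcn). The genes closest to Mmp9 were Il1f9, Cxcr2 and Rdh12, those closest to Mmp13 were Itgb5, Tgfb3 and Itsn1, those closest to Mmp14 were Dst, Twf1 and Plod3, and those closest to Timp2 were Cd63, Sdc4 and Lrp1.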

How the data were processed

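The deposited values were raw UMI counts per gene and barcode for 1 FLOX and 1 MCT1-KO library. Per the labels and the study's methods, the authors trimmed reads, counted UMIs with SeekOneTools and used Seurat 4.0.0. The labels name a microwell 3′ kit and the study's methods other kits, so the kit is not known. The labels also name the human build GRCh38, although the gene identifiers are mouse, so the build used for counting is not known. Nearly all barcodes were deposited, empty ones included.

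Barcodes with at least 500 UMIs, 200 to 5000 genes and a mitochondrial share up to 8% were kept, and doublets were kept in the main analysis. Cells were clustered in Seurat 5.3.0 (R 4.3.3; 2000 variable genes without the members and list genes, canonical correlation anchors, 20 dimensions, resolution 0.8). Clusters were named from marker lists when at least 3 markers were detected, by a scoring rule set after the clusters had been seen. The members, marker lists and matrix lists were chosen with earlier results of these data known. UMIs were summed per class and library and divided by the class total (CPM), with Garwood intervals for levels, conditional exact intervals for ratios and Clopper-Pearson intervals for shares at 95% (scipy 1.17.1). With 1 library per group no test was made. The interval code was tested on simulated data.

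All 10 members were named. From the lists, the 2 genes with the highest level and the 3 with the largest ratio in each direction with at least 50 UMIs were named per class, and P4ha1, Pcolce and Serpinh1 in PSC-like cells, were named after their values were seen, as were the leading genes of clusters. Free RNA was read from barcodes with 10 to 100 UMIs. Its share in a class was scaled so that all acinar marker UMIs of the class counted as free RNA. Promoters came from RefSeq for GRCm38.p6. Other filters, clusterings, class rules, totals and folds were tried as alternatives.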

Additional observations from a re-analysis of the deposited data

Results flagged for a closer look

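Mmp3 and Timp1 had called ratios on opposite sides of 1 in different classes with intervals that leave out 1, a difference that was not tested, since each group has 1 library. For Mmp3 the ratio of the MCT1-KO to the FLOX library was 1.56 in PSC-like and 2.00 in myeloid-like cells, but 0.0753 in neutrophil-like cells. The myeloid-like levels (1.99 and 3.97 CPM) lay under the free RNA, and the neutrophil-like ratio, on which the opposite sides of Mmp3 rest, came from 19 UMIs and 1 UMI, with 15 of the 19 in 1 cell, so that it reached the 20 UMIs through the FLOX library. For Timp1 the ratio was 0.374 in PSC-like cells, but 2.29 in dendritic-like and 1.56 in T/NK-like cells, where its levels of 15.2 to 34.7 CPM lay under the 259 and 206 CPM of the free RNA. Timp1 was also called lower in neutrophil-like cells (0.633) and Mmp9 higher in myeloid-like cells (1.58), against 0.348 in ductal-like and 0.551 in neutrophil-like cells, but the intervals of 0.633 and 1.58 hold 1.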

How the results depend on the processing

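Called members numbered 5 in PSC-like, 3 in ductal-like and 5 in myeloid-like cells, and moved as follows. The shares of all genes called, given above by class, were computed for the main setting only. The counts under other settings and over all classes therefore have no background and are no result about the members. In PSC-like cells 3 were called with likely doublets left out or with only the fibroblastic cells of the larger cluster, where Mmp3 was under 1.5-fold and Mmp13, at 0.183 and 0.435, had under 20 UMIs. In ductal-like cells 1 was called without the upper gene limit or at a fold of 2. In myeloid-like cells 3 were called with a UMI minimum of 1000, a resolution of 0.4, each cell classed by its markers, or a fold of 2. Over all classes 22 of 44 ratios were called, 8 higher and 14 lower, 14 with each cell classed by its markers, and 9 higher and 9 lower after free RNA was subtracted, where only 31 ratios had a value and members whose FLOX level became 0 count among the higher. Members with shares that did not overlap in PSC-like cells numbered 2 at 1000 UMIs (Timp1 and Timp3) and 4 at 2000 (Mmp2, Timp2, Timp3 and Loxl2, without Timp1). The share of all genes without overlap was not computed, so these numbers cannot be set against a background. The members highest in PSC-like cells numbered 8, and 6 with each cell classed by its markers or in cells without an immune UMI.

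The summed member level of PSC-like cells was 7151 CPM (FLOX) and 4013 CPM (MCT1-KO). It was 1549 and 1429 CPM with each cell classed by its markers, 3279 and 3583 CPM in cells without an immune UMI, 10350 and 4393 CPM after free RNA was subtracted, 7754 and 4340 CPM with likely doublets left out, 7406 and 4158 CPM with a total that left out mitochondrial, acinar and heat shock genes, 7405 and 4087 CPM without the Rgs5 cluster and 6772 and 3872 CPM without the top cell of each member. It was 6953 and 3950.3 CPM without the upper gene limit, 7285 and 4076 CPM with a mitochondrial share up to 5% and 6733 and 4041 CPM in fibroblastic cells.

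Some called ratios turned. Mmp9 in myeloid-like cells was at 0.788 with a UMI minimum of 1000, and Timp1 in dendritic-like cells was at 0.927 without the upper gene limit. With likely doublets left out, Mmp14 in neutrophil-like cells was at 0.908 and Timp1 in T/NK-like cells at 0.962. With each cell classed by its markers, Mmp3 was at 0.968 in PSC-like and 0.628 in myeloid-like cells, Mmp9 at 0.699 in myeloid-like cells, and Timp1 at 1.07 in neutrophil-like, 0.820 in dendritic-like and 0.725 in T/NK-like cells. After free RNA was subtracted, Mmp2 and Mmp9 in ductal-like cells were at 2.14 and 1.23. The cause was not tested in any of these.

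Over all settings, the ratio in PSC-like cells ranged from 0.271 to 0.737 for Timp3, from 0.284 to 0.793 for Timp1 and from 0.329 to 0.617 for Loxl2. The settings without the Rgs5 cluster, in fibroblastic cells, without top cells, with Epcam-high cells added and without thinning were chosen after the data had been seen. Depth limits Mmp9 and Mmp13 in PSC-like cells most, with at most 15 UMIs in a library. No paired analysis was possible because each group has 1 library.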

Other observations

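A small class of Epcam-high ductal-like cells, 35 in the FLOX and 64 in the MCT1-KO library and led by Tff1, Gkn1 and Tff2, was left out of the comparisons for its size. It carried Timp3 at 179 CPM (47 UMIs) and 397 CPM (133 UMIs), beside 14.7 and 7.89 CPM in the other ductal-like cells. Acinar-like cells, 40 and 425, carried Mmp14 from 3 and 328 UMIs and Timp2 from 8 and 491 UMIs.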
